A study of Mus musculus with 8 samples.

Results

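Interferon-stimulated genes were followed in natural killer (NK) cells of the lung and the spleen, in mice with or without the proximal enhancer (PE) of Ccl5. The set held 51 genes, taken by symbol from the count files because they encode the type I interferon receptor, the transcription factors that act after it, or products that interferon induces, and all 51 had a row among the 48321 gene symbols. RNA-seq libraries had been made from NK cells, gated as CD45+ TCRb- NK1.1+, of C57/Bl6 mice, with 2 libraries, numbered 1 and 2, in each of 4 groups, namely lung Wt, lung KO, spleen Wt and spleen KO. KO stands for Ccl5ΔPE/ΔPE, the homozygous deletion of the PE in the germline, so every cell of the mouse carried it, and Wt mice kept the enhancer. No infection or treatment is named for these mice. The study describes its mice as juveniles to adults of both sexes kept in a specific pathogen-free facility, without giving the age or sex behind each library. The design asks what loss of the enhancer changes in the NK cells of each organ, and how lung and spleen NK cells differ.

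Interferons are secreted proteins that warn cells of viral infection. Type I interferon binds the receptor formed by Ifnar1 and Ifnar2, the kinases JAK1 and TYK2 phosphorylate STAT2, and this joins IRF9 in a complex that binds the interferon-stimulated response element (ISRE) in the promoters of target genes, while interferon gamma acts mainly through the gamma-activated site (GAS). The targets include sensors of viral nucleic acid, enzymes that destroy or block viral RNA, the ubiquitin-like modifier ISG15 and large GTPases that attack the compartments of intracellular parasites, and NK cells both respond to type I interferon and secrete interferon gamma.

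Between 3132963 and 26482366 reads were counted on genes per library, both extremes being spleen KO libraries. Levels are given in CPM, read counts relative to the library total and scaled by TMM, the trimmed mean of M values. Ccl5, the gene whose enhancer was deleted, was found at 18315 to 19482 CPM in lung Wt and 2986 to 3188 CPM in lung KO, and at 15634 to 16647 CPM in spleen Wt and 2428 to 2672 CPM in spleen KO, so the libraries matched their genotype labels. All 10 NK cell markers were detected in each group, and their summed level was 50871 to 52404 CPM in lung Wt, 40813 to 41201 in lung KO, 37300 to 37884 in spleen Wt and 48131 to 50431 in spleen KO. The 2 libraries of a group differed little, with a common biological coefficient of variation of 2.50%. Nothing states that they came from separate mice, so the p-values measure the spread between these libraries, which may be technical. With 2 libraries against 2 an exact permutation test cannot give a p below 0.333, and the p-values printed here come from edgeR's quasi-likelihood test over 12595 genes with Benjamini-Hochberg adjustment, called at a threshold of 0.05. Differences are log2 fold changes of KO against Wt or of lung against spleen with the SE of the fit. A call is said to be lost where another setting gives an adjusted p above the threshold. Such settings include DESeq2, scaling to library totals, removal of the GC trend, and leaving out 1 library. The GC trend is that of each library's log2 CPM, relative to the gene's mean, with the GC content of the longest transcript. It was removed before the fit. Because whole sorted populations were sequenced, a change in the share of an NK cell subset and a change in RNA per cell cannot be told apart.

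Of the 51 members, 48 had enough reads to be tested. Mx2, whose gene is defective in many laboratory strains, had no read in any library, and Oas2, an enzyme that makes the second messenger that switches on RNase L, had 1 read in lung KO, 1 in spleen Wt and none elsewhere. Oas1g, of the same enzyme family, had no read in the 4 lung libraries, 1 and 10 reads in spleen Wt, and 0 and 27 reads in spleen KO. Nearly all of its reads thus came from spleen Wt 2 and spleen KO 2, and no fold is given. The limit of 3 reads stood at 0.113 to 0.958 CPM in the 8 libraries and covers counting error only. Reads of Oas1g can be shared with the closely similar Oas1a, so its low count is uncertain.

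The level of the members spanned a wide range. Per kb of exon, the highest mean levels in lung Wt were those of the GTPase Ifi47 at 156 CPM per kb, Ifi35 at 128, Irf8 at 122 and Gbp7 at 104. The lowest mean levels among the tested members in lung Wt were those of Oasl1, Oasl2, Rsad2 and Oas3, from 0.0892 to 0.335 CPM per kb. Ifi47, Ifi35 and Gbp7 also had the 3 highest levels per kb in both spleen groups, where Irf8 ranked 8 in Wt and 10 in KO. Exons of 20 members overlap those of another gene, by at most 16.8% of their length, and reads shared by near-identical copies may not have been counted, so that the levels of such members are uncertain. Summed over the 51 members, the level stayed between 4486 and 4769 CPM in the 8 libraries.

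**Figure D1:**
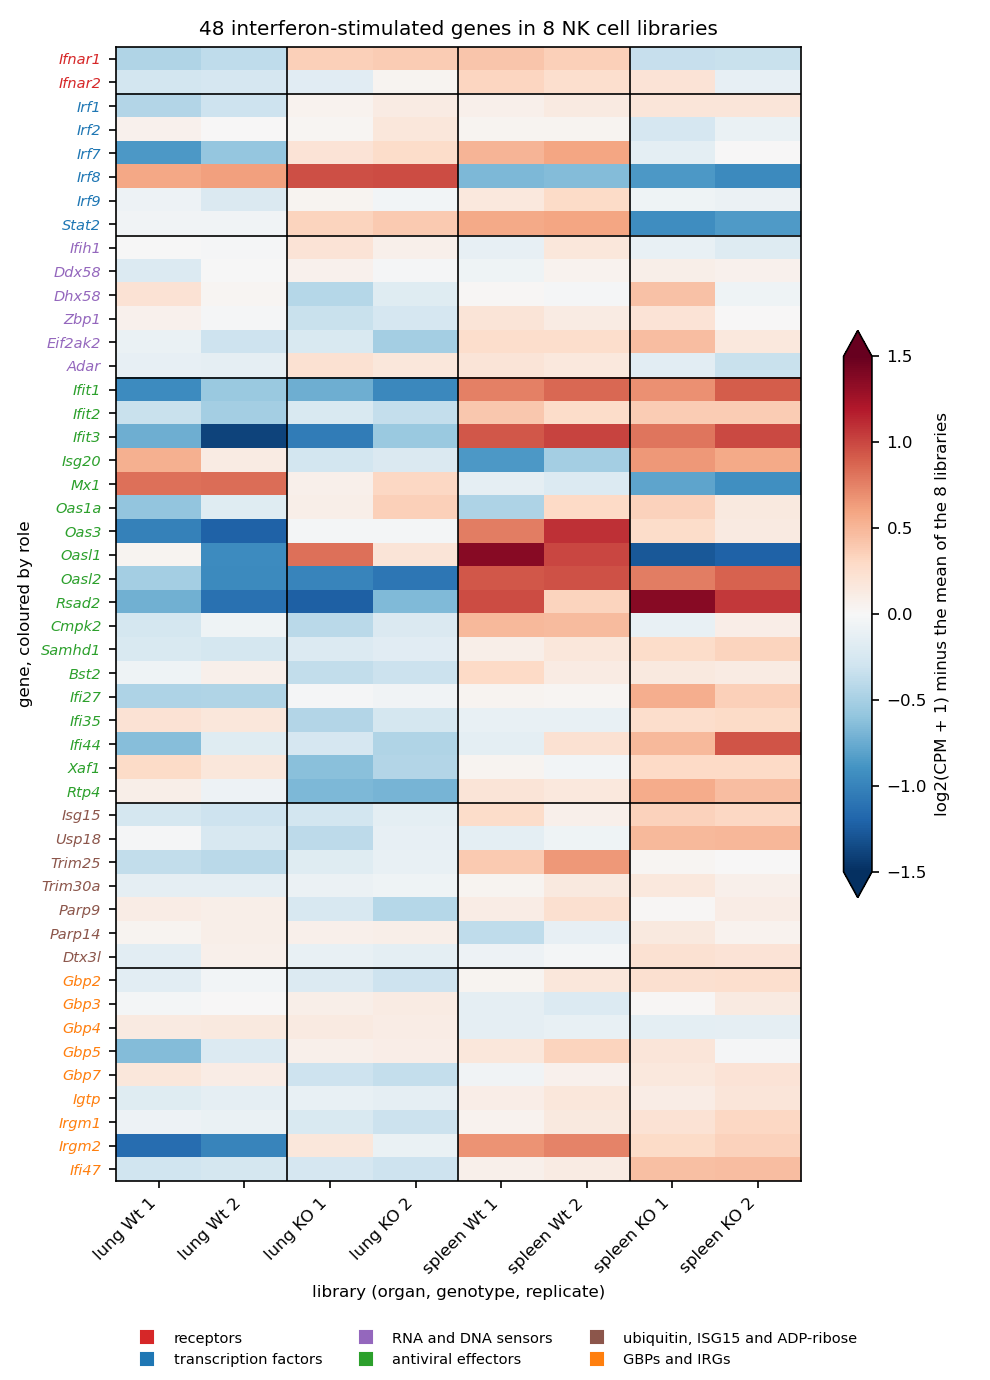
Each of the 48 tested members is drawn as a line of cells and each of the 8 libraries as a column, coloured by log2(CPM + 1) minus the mean of the 8 libraries, with genes grouped by role. Ifit1, Ifit3, Oasl2 and Rsad2 are red in the 4 spleen libraries and blue in the 4 lung libraries, whereas Ifnar1, Irf7 and Stat2 are red in lung KO and spleen Wt.

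Promoter sequences were read from the RefSeq table for GRCm38.p6, which held 50 windows of 250 bases before to 50 bases after a start site for 40 of the 51 members. No window was given for Parp14, Ifi27, Gbp4, Parp9, Dhx58, Usp18, Oas2, Mx2, Zbp1, Mx1 and Rtp4. The ISRE core was searched as GAAANNGAA and the GAS as TTCNNNGAA on both strands, overlapping matches included, and matches of the motifs can overlap each other, as they do in Bst2. The ISRE core was in 25 of the 50 member windows (50%) and in 8.56% of all 32851 windows, and the GAS in 17 of 50 (34%) and in 8.3% of all. Counted by gene, the ISRE core was in 24 of the 40 members with a window (60%) and in 9.76% of all 27025 genes. The members that were lower in lung than in spleen in Wt held it in 17 of the 28 that have a window. Those higher in lung held it in 1 of 5, and those not called in 5 of 6. A match is a description of the letters and not a bound site.

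The first 3 stretches below belong to genes that were called between the organs and not between the genotypes, the next 3 to genes whose genotype difference was opposite in the 2 organs, and the last 2 to transcription factors with a GAS and no ISRE core. Capitals mark the matches, and a match on the other strand reads TTCNNTTTC.
Ifit1, chr19:34640765-34640828, plus strand: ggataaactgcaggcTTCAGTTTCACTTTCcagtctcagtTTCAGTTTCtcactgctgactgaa
Ifit3, chr19:34583359-34583450, plus strand: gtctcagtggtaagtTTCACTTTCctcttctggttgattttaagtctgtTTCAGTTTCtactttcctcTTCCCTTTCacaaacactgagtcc
Isg15, chr4:156200861-156200911, minus strand: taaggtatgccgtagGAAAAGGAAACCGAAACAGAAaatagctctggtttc
Oas3, chr5:120777705-120777749, minus strand: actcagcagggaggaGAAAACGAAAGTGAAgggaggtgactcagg
Stat2, chr10:128270262-128270300, plus strand: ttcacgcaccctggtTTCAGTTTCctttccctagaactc
Irgm2, chr11:58214887-58214936, plus strand: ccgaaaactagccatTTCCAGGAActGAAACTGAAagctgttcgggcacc
Irf1, chr11:53769909-53769947, plus strand: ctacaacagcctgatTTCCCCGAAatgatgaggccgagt
Irf8, chr8:120736172-120736228, plus strand: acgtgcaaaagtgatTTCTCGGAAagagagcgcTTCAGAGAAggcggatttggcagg
Ifit1 and Ifit3 each had 3 separate or overlapping copies on the reverse strand, and in Isg15 and Oas3 the copies followed each other every 6 bases on the forward strand, sharing the GAA between neighbours. Irgm2 held a GAS next to its ISRE core, and Irf7 and Oasl1 held neither motif in their windows.

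Interferon-stimulated genes differed between KO and Wt in both directions in each organ, at shares close to those of all genes. In lung, 12 of the 48 tested members were higher in KO (25%), where 29.2% of all genes tested were, and 11 were lower (22.9%), where 26.4% of all genes were. In spleen, 16 members were higher in KO (33.3%, against 28.2% of all genes) and 16 were lower (33.3%, against 28.9%). The shares of members called thus lay close to those of all genes, and the median member difference was 0.06 on the log2 scale in lung and 0.003 in spleen, against 0.020 and 0.000 over all genes. Without spleen KO 2, the deepest library, 9 members were higher and 10 lower in spleen. The receptor subunits and transcription factors made up 6 of the 12 members that were higher in lung KO and 7 of the 16 that were lower in spleen KO.

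Members called in both organs mostly changed in opposite directions. Of 18 such members, 16 were opposite, and over all genes 3402 of 4367 were opposite (77.9%). Higher in lung KO and lower in spleen KO were Ifnar1, Ifnar2, Irf7, Irf8, Stat2, Oas3, Adar, Gbp5 and Irgm2, 9 of the 16, and the other 7 were the other way round, namely Isg20, Ifi35, Xaf1, Rtp4, Gbp2, Gbp7 and Irgm1. Ifi27 was higher in KO in both organs and Mx1 was lower in both. In neither organ were 11 members called (22.9%, against 22% of all genes). These 11 included Ifit1, Ifit2, Ifit3, Isg15, Oasl2, Trim30a and the RNA sensor Ddx58. With the GC trend removed, 5 of the 11 were called, namely Ddx58 (0.18) and Trim30a (0.20) higher and Dhx58 (-0.70) lower in lung KO, and Isg15 (0.32) higher and Gbp4 (-0.12) and Trim30a (-0.17) lower in spleen KO. The difference between the lung and the spleen effect was called higher in lung for 16 members (33.3%, against 32.5% of all genes) and lower in lung for 12 (25%, against 29% of all genes).

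**Figure D2:**
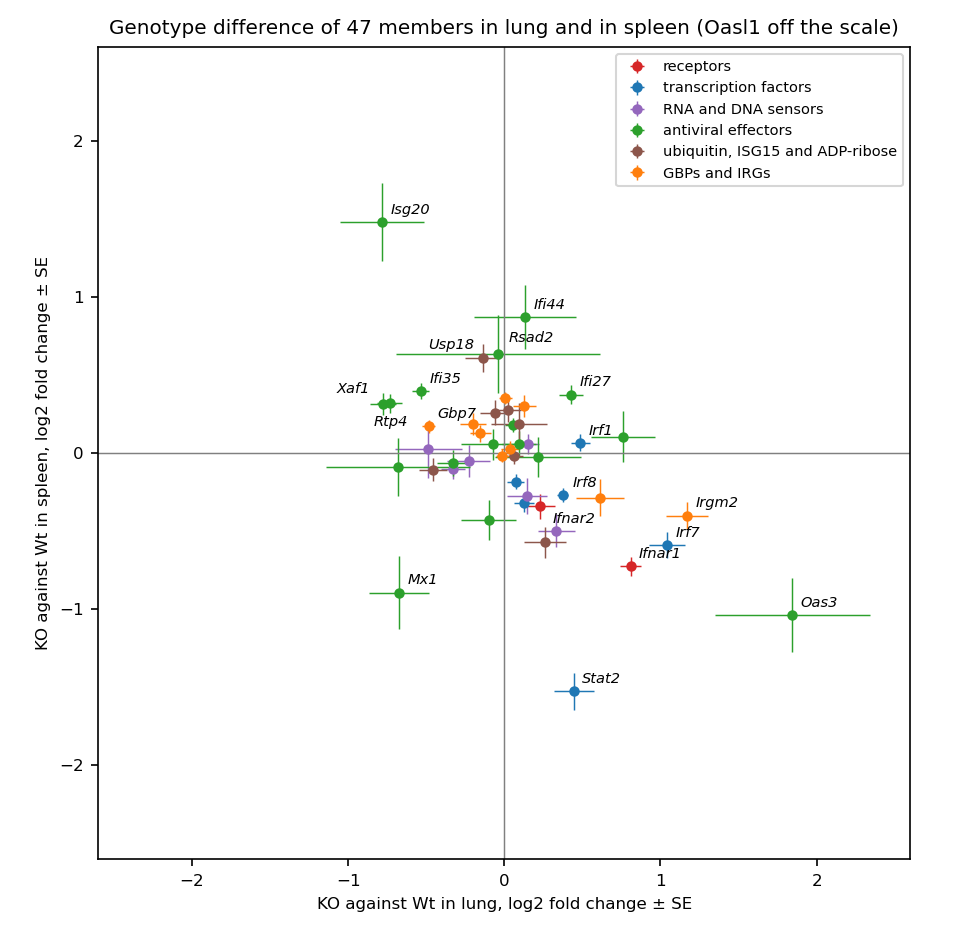
The log2 fold change of KO against Wt in lung (horizontal axis) is plotted against that in spleen (vertical axis) for 47 tested members, with bars for the SE of each fit and colours for the role. Ifnar1, Irf7, Irgm2, Oas3 and Stat2 lie at the lower right and Isg20, Xaf1 and Rtp4 at the upper left, and Oasl1, at 1.11 in lung and -6.45 in spleen, is off the scale.

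Some of these genes had their libraries of lung KO and spleen Wt on one side and those of lung Wt and spleen KO on the other. All 4 libraries of lung KO and spleen Wt were above all 4 of lung Wt and spleen KO for Ifnar1, Irf7, Irf9, Stat2, Adar and Oasl1, 6 of 48 members (12.5%), and for 14.1% of all genes. The opposite order was found for Isg20, Ifi35, Xaf1 and Gbp7, 4 of 48 members (8.33%), and for 12% of all genes. The summed NK cell markers given above were lower in lung KO and spleen Wt than in lung Wt and spleen KO. Gzma, at a mean of 24786 CPM in lung Wt, was the largest part of that sum. Of the 10 markers, 6 were called lower in lung KO and 7 higher in spleen KO. Tbx21, Il2rb and Prf1 went the other way. Their log2 differences of KO from Wt were 1.135, 1.209 and 0.740 in lung and -1.180, -0.608 and -0.484 in spleen. The part of these marker differences in the results was not tested.

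**Figure D3:**
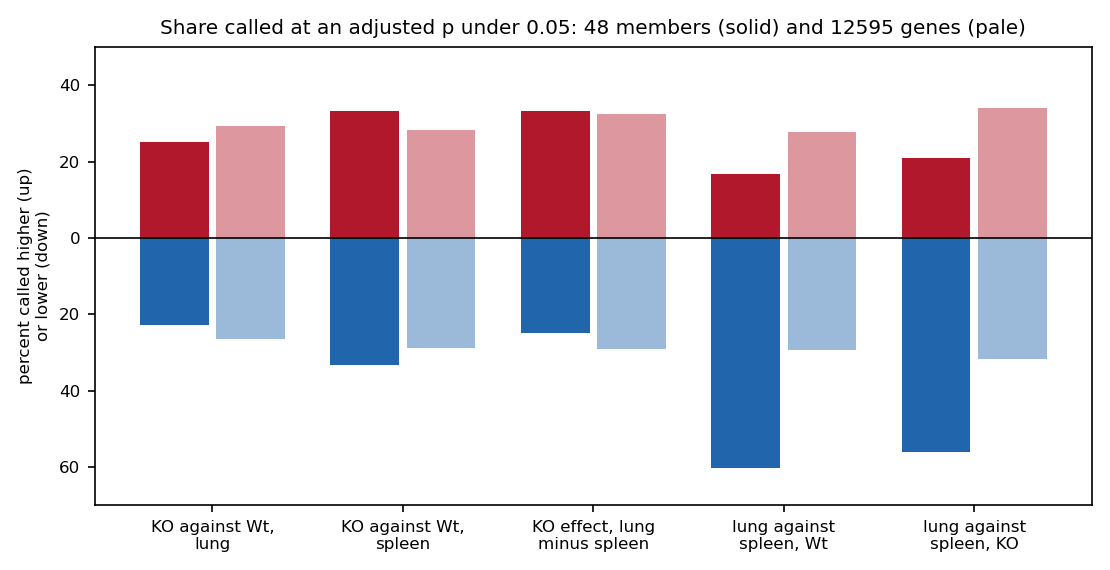
Bars give the percentage of genes called higher (upwards) or lower (downwards) in each of 5 comparisons, solid for the 48 tested members and pale for all 12595 genes tested. The solid and pale bars are similar for the 2 genotype comparisons and their difference, and the members called lower in lung than in spleen reach 60.4% in Wt.

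Both subunits of the type I interferon receptor were called higher in lung KO and lower in spleen KO, though the calls of Ifnar2 were lost under several settings. Ifnar1, the subunit that recruits TYK2, was at 66.6 and 70.3 CPM in lung Wt and 118 and 119.7 CPM in lung KO. Spleen Ifnar1 stood at 123 and 117 CPM in Wt and 71.7 and 72.3 CPM in KO. Its libraries fell into a high pair of groups, lung KO and spleen Wt, and a low pair, with no overlap. The difference of KO from Wt was 0.81 on the log2 scale (SE 0.07, edgeR adjusted p = 8.6e-13) in lung and -0.73 (SE 0.06, adjusted p = 7.3e-13) in spleen, and the difference between these effects was 1.53 (SE 0.09, adjusted p = 2.3e-17). Ifnar2, the subunit that binds interferon most tightly and recruits JAK1, was at 46.2 and 46.8 CPM in lung Wt and 49.8 and 57.7 CPM in lung KO. Spleen Ifnar2 stood at 70.3 and 66.9 CPM in Wt and 64.8 and 51.5 CPM in KO. The lung KO libraries were above both lung Wt libraries, and the spleen KO libraries were below both spleen Wt libraries. Its difference was 0.23 on the log2 scale (SE 0.10, edgeR adjusted p = 0.0402) in lung and -0.34 (SE 0.08, adjusted p = 3.7e-04) in spleen. The lung call of Ifnar2 was lost with DESeq2 (0.21), after removal of the trend with GC content (0.13), without lung Wt 1 (0.21), without lung Wt 2 (0.23) and without lung KO 2 (0.10). The spleen call was lost with DESeq2 (-0.27) and without spleen KO 2 (-0.07), and without that library the difference between the organs, 0.57 on the log2 scale (SE 0.12, edgeR adjusted p = 1.4e-04) with it, was 0.30 and not called.

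All 6 transcription factors had a genotype effect that was higher in lung than in spleen. In lung, 4 of the 6 were higher in KO and none was lower, and in spleen 5 were lower and none was higher. Of all genes tested, 29.2% were higher in lung KO, 28.9% lower in spleen KO and 32.5% higher in the difference between the organs. Irf7, the factor that amplifies type I interferon production, was at 18.7 and 23 CPM in lung Wt and 40.4 and 42.4 CPM in lung KO. Spleen Irf7 stood at 50.4 and 53.1 CPM in Wt and 31.6 and 35.2 CPM in KO. No libraries of different groups overlapped, and the order from low to high was lung Wt, spleen KO, lung KO and spleen Wt. Irf7 differed by 1.04 on the log2 scale (SE 0.11, edgeR adjusted p = 7.8e-10) in lung and by -0.59 (SE 0.08, adjusted p = 2.1e-07) in spleen, the latter being -0.37 with the GC trend removed. Stat2, the signal transducer found only in the response to type I and type III interferon, was at 17.6 and 17.6 CPM in lung Wt and 23.3 and 24.4 CPM in lung KO. Spleen Stat2 stood at 27.7 and 28 CPM in Wt and 9.12 and 9.75 CPM in KO. It was lowest in spleen KO, 2.88-fold below spleen Wt, and again no groups overlapped. The difference was -1.53 on the log2 scale (SE 0.12, edgeR adjusted p = 1.4e-13) in spleen and 0.45 (SE 0.13, adjusted p = 0.00312) in lung, where DESeq2 (0.43) and a fit without lung Wt 1 (0.44) did not call it and removal of the GC trend left 0.29.

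Irf8, a factor that drives dendritic cell and macrophage development and is also used by NK cells in antiviral immunity, had the highest level per kb of the 6 factors in each of the 4 groups. Its libraries were at 852 and 871 CPM in lung Wt and 1112 and 1118 CPM in lung KO. Spleen Irf8 stood at 357 and 362 CPM in Wt and 313 and 292 CPM in KO. Every lung library was above every spleen library, and KO libraries were above Wt in lung and below Wt in spleen. The genotype difference was 0.37 on the log2 scale (SE 0.04, edgeR adjusted p = 7.8e-11) in lung and -0.27 (SE 0.04, adjusted p = 1.6e-06) in spleen, and with the GC trend removed 0.23 and -0.17. Irf1, the factor that answers to interferon gamma, was at 97.7 and 106 CPM in lung Wt and 137 and 145 CPM in lung KO. Spleen Irf1 stood at 139 and 146 CPM in Wt and 149.9 and 150.1 CPM in KO. The lung Wt libraries were the lowest, and the other groups overlapped or lay close together. Irf1 differed by 0.49 on the log2 scale (SE 0.06, edgeR adjusted p = 2.2e-08) in lung, and in spleen the difference was 0.07 (SE 0.05, adjusted p = 0.305). With the GC trend removed the lung difference of Irf1 was 0.30, the spleen difference was 0.20 and called, and the difference between the organs, 0.42 on the log2 scale (SE 0.08, edgeR adjusted p = 3.0e-05) before, was 0.10 and not called.

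Irf9, the DNA-binding partner of STAT2, was at 118 and 107 CPM in lung Wt and 128 and 122 CPM in lung KO. Spleen Irf9 stood at 139 and 152 CPM in Wt and 119 and 118 CPM in KO. Its spleen KO libraries were below those of spleen Wt, and the lung groups were separated by less. The difference was -0.32 on the log2 scale (SE 0.06, edgeR adjusted p = 8.2e-06) in spleen and 0.13 (SE 0.06, adjusted p = 0.0877) in lung, where scaling to library totals (0.22) and leaving out lung Wt 1 (0.21) brought a call. Irf2, which can repress interferon-stimulated promoters, was at 248 and 238 CPM in lung Wt and 243 and 266 CPM in lung KO. Spleen Irf2 stood at 245 and 244 CPM in Wt and 199.8 and 221 CPM in KO. Its lung groups overlapped, and both spleen KO libraries were below spleen Wt. Irf2 differed by -0.18 on the log2 scale (SE 0.05, edgeR adjusted p = 0.00197) in spleen, -0.29 without spleen KO 2, and by 0.07 (SE 0.05, adjusted p = 0.242) in lung, and the lung value was 0.16 and called with library totals and -0.00 without lung KO 2. The difference between the organs was 0.26 on the log2 scale (SE 0.07, edgeR adjusted p = 0.00237), which was 0.42 with library totals and not called without lung KO 2 (0.18).

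The 6 genes grouped as sensors of viral nucleic acid include the editing enzyme Adar. Of the 6, 1 was higher (16.7%, against 29.2% of all genes) and 1 lower (16.7%, against 26.4%) in lung KO. In spleen KO 2 were lower (33.3%, against 28.9% of all genes). The gene higher in lung KO was Adar, and those lower in spleen KO were Adar and Ifih1. Adar, which edits double-stranded RNA and so hides the cell's own RNA from sensors, was at 21.5 and 21.2 CPM in lung Wt and 27.6 and 26.5 CPM in lung KO. Spleen Adar stood at 26.9 and 26.4 CPM in Wt and 20.9 and 18.5 CPM in KO. Lung KO and spleen Wt were above the other groups. The difference was 0.33 on the log2 scale (SE 0.12, edgeR adjusted p = 0.0166) in lung and -0.50 (SE 0.10, adjusted p = 1.1e-04) in spleen. The lung call was lost with DESeq2 (0.33), with the GC trend removed (0.13) and without lung Wt 1, lung KO 1 or lung KO 2 (0.32 to 0.37), and the spleen call without spleen KO 2 (-0.35). Zbp1, the sensor of left-handed nucleic acid, was lower in lung KO at -0.33 on the log2 scale (edgeR adjusted p = 3.0e-04), and Ifih1, which encodes the RNA sensor MDA5, was lower in spleen KO at -0.28 (adjusted p = 0.0359), which was lost with DESeq2 (-0.22), without spleen Wt 2 (-0.07) and without spleen KO 2 (-0.20). Ddx58 (RIG-I), Dhx58 (LGP2) and Eif2ak2 (PKR), which detect viral RNA, were called in neither organ, except Ddx58 and Dhx58 in lung with the GC trend removed, with log2 differences from -0.49 to 0.15 in lung and from -0.05 to 0.06 in spleen. Exons of Adar overlap those of Chrnb2 on the other strand over 16.8% of their length, and the library kit does not record strand, so reads there cannot be assigned to one gene.

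The antiviral effectors held the largest single differences and moved in both directions. In lung, 3 of the 18 tested effectors were higher in KO (16.7%, against 29.2% of all genes) and 6 were lower (33.3%, against 26.4%). In spleen, 8 were higher (44.4%, against 28.2% of all genes) and 4 were lower (22.2%, against 28.9%). Oasl1, a relative of the oligoadenylate synthetases that holds back translation of Irf7, lies at chr5:114923240-114937915 on the forward strand of GRCm38. It had 12 and 1 reads in lung Wt, 16 and 13 reads in lung KO, 21 and 33 reads in spleen Wt, and 0 and 1 reads in spleen KO. Reads were thus present in all libraries of 3 groups and nearly missing from spleen KO, which includes the deepest library. Relative to the reads on genes, spleen Wt was 131-fold above spleen KO, with an exact 95% counting interval of 22.6 to 5280, and lung KO was 71.7-fold above spleen KO, with an interval of 11.9 to 2928. The spleen difference was called with edgeR adjusted p = 7.8e-11, and the fitted log2 value of -6.45 rests on 1 read in KO and is no bound. In lung Oasl1 differed by 1.11 on the log2 scale (SE 0.49, edgeR adjusted p = 0.0532), and it was called there without lung Wt 1 (3.12), without lung KO 2 (1.58), and under 5 other settings.

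Oas3, the synthetase that responds to the lowest amounts of double-stranded RNA, was at 0.745 and 0.517 CPM in lung Wt and 2.45 and 2.44 CPM in lung KO. Spleen Oas3 stood at 4.99 and 6.53 CPM in Wt and 3.26 and 2.87 CPM in KO. The lung Wt libraries were lowest and the spleen Wt libraries highest, with the KO groups between. Oas3 differed by 1.84 on the log2 scale (SE 0.50, edgeR adjusted p = 0.00182) in lung and by -1.04 (SE 0.24, adjusted p = 3.1e-04) in spleen, where the call was lost with DESeq2 (-0.95), without spleen Wt 2 (-0.77) and without spleen KO 2 (-0.88). Isg20, an exonuclease that degrades single-stranded RNA, was at 6.83 and 4.91 CPM in lung Wt and 3.47 and 3.67 CPM in lung KO. Spleen Isg20 stood at 1.99 and 2.8 CPM in Wt and 7.5 and 7.03 CPM in KO. No groups overlapped, and the order from low to high was spleen Wt, lung KO, lung Wt and spleen KO. Its difference was 1.48 on the log2 scale (SE 0.25, edgeR adjusted p = 4.0e-06) in spleen and -0.78 (SE 0.27, adjusted p = 0.013) in lung, where the call was lost with DESeq2 (-0.75), without lung Wt 1 (-0.46) and without lung KO 2 (-0.83).

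Mx1, a dynamin-like GTPase that blocks influenza virus and whose gene is defective in most laboratory strains, was at 12 and 12.2 CPM in lung Wt and 6.74 and 8.14 CPM in lung KO. Spleen Mx1 stood at 5.73 and 5.36 CPM in Wt and 3.26 and 2.91 CPM in KO. The KO libraries were below the Wt libraries in each organ. The difference was -0.67 on the log2 scale (SE 0.19, edgeR adjusted p = 0.00298) in lung and -0.89 (SE 0.23, adjusted p = 0.00139) in spleen, and the effects did not differ detectably between the organs, at 0.22 (SE 0.30, adjusted p = 0.541). DESeq2 called neither (-0.70 and -0.88), and the spleen call was lost without spleen KO 2 (-0.75). Ifi44, an effector that binds GTP, was at 2.73 and 4.14 CPM in lung Wt and 3.88 and 3.26 CPM in lung KO. Spleen Ifi44 stood at 4.24 and 5.83 CPM in Wt and 7.17 and 10.2 CPM in KO. The lung groups overlapped and spleen KO was highest. Its difference was 0.87 on the log2 scale (SE 0.20, edgeR adjusted p = 3.8e-04) in spleen and 0.14 (SE 0.33, adjusted p = 0.752) in lung, -0.24 without lung Wt 1. The spleen call was lost with DESeq2 (0.81) and without spleen KO 2 (0.43).

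**Figure D4:**
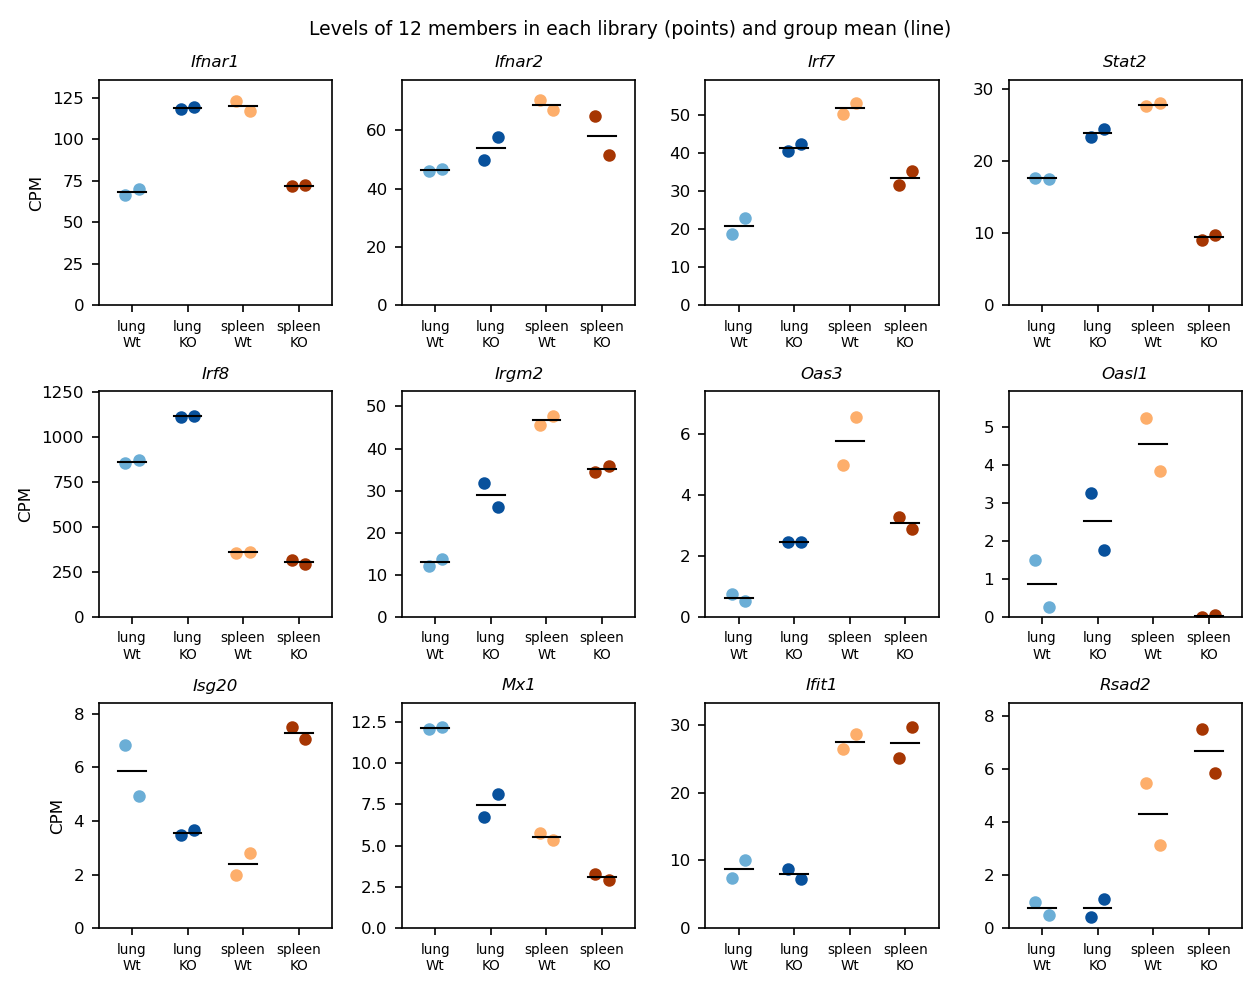
The CPM of 12 members is plotted for each library (points) with the mean of the 2 libraries of a group (line), on axes that start at 0. Ifnar1, Irf7 and Stat2 are high in lung KO and spleen Wt, Oasl1 lies near 0 in spleen KO, and Ifit1 and Rsad2 differ between organs much more than between genotypes.

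Ifit1, Ifit2 and Ifit3, whose products bind viral RNA that lacks the host's cap methylation, did not change detectably with genotype. The related Ifit1bl1, outside the 51, was at 35.5 and 38.8 CPM in lung Wt and 15.1 and 17.6 CPM in lung KO. In spleen Ifit1bl1 stood at 51.1 and 55.4 CPM in Wt and 53.8 and 48.2 CPM in KO. Ifit1 was at 7.45 and 10.1 CPM in lung Wt and 8.78 and 7.33 CPM in lung KO. Spleen Ifit1 stood at 26.4 and 28.6 CPM in Wt and 25.1 and 29.6 CPM in KO. Ifit3 was at 5.09 and 2.84 CPM in lung Wt and 3.88 and 5.84 CPM in lung KO. Spleen Ifit3 stood at 18.2 and 19.4 CPM in Wt and 16.6 and 19 CPM in KO. In both genes Wt and KO libraries overlapped within each organ. Ifit1 differed by -0.07 on the log2 scale (SE 0.21, edgeR adjusted p = 0.796) in lung and by 0.06 (SE 0.10, adjusted p = 0.672) in spleen, and Ifit3 by 0.21 (SE 0.28, adjusted p = 0.53) and -0.03 (SE 0.13, adjusted p = 0.894). Oasl2, which enhances RIG-I signalling, was at 2.11 and 1.29 CPM in lung Wt and 1.23 and 1.09 CPM in lung KO. Spleen Oasl2 stood at 7.48 and 7.58 CPM in Wt and 6.52 and 7.19 CPM in KO. Its lung values rest on few reads, and the difference was -0.68 on the log2 scale (SE 0.46, edgeR adjusted p = 0.222) in lung and -0.09 (SE 0.19, adjusted p = 0.71) in spleen. Rsad2 (viperin), which makes a chain-terminating nucleotide, was at 0.993 and 0.517 CPM in lung Wt and 0.408 and 1.09 CPM in lung KO. Spleen Rsad2 stood at 5.48 and 3.15 CPM in Wt and 7.5 and 5.85 CPM in KO. Wt and KO overlapped in lung and not in spleen. The difference was called in spleen, at 0.63 on the log2 scale (SE 0.25, edgeR adjusted p = 0.0304), and was -0.04 (SE 0.66, adjusted p = 0.967) in lung. The spleen call was lost under several settings, among them library totals (0.57), DESeq2 (0.65), removal of the GC trend (0.56) and leaving out spleen Wt 2 (0.14), spleen KO 1 (0.58) or spleen KO 2 (0.93).

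The remaining effectors that differed did so by less than 1 on the log2 scale. Xaf1, a partner of a caspase inhibitor, was -0.78 on the log2 scale (edgeR adjusted p = 4.9e-10) in lung and 0.32 (adjusted p = 2.0e-04) in spleen, and Rtp4, which binds the TIMELESS complex, was -0.73 (adjusted p = 8.9e-10) and 0.32 (adjusted p = 3.7e-05). Ifi35, a leucine zipper protein released by stressed cells, was -0.53 on the log2 scale (edgeR adjusted p = 2.1e-10) in lung and 0.40 (adjusted p = 2.4e-08) in spleen, with 16.8% of its exons overlapping Gm11626 on the other strand. Ifi27, a small mitochondrial protein, was higher in KO in both organs, at 0.43 on the log2 scale (edgeR adjusted p = 9.3e-06) in lung, 0.26 with the GC trend removed, and 0.37 (adjusted p = 2.9e-06) in spleen. Oas1a, a synthetase like Oas3, was higher in lung KO at 0.76 on the log2 scale (SE 0.21, edgeR adjusted p = 0.00198), was not called in spleen, and lost that call with DESeq2 (0.69), without lung Wt 1 (0.47) and without lung KO 2 (0.58). Bst2 (tetherin), which holds budding virus at the cell surface, was lower in lung KO at -0.33 on the log2 scale (edgeR adjusted p = 0.00655), which was lost with library totals (-0.24) and DESeq2 (-0.35) and was -0.59 with the GC trend removed. Cmpk2, a nucleotide kinase encoded next to Rsad2, was lower in spleen KO at -0.43 on the log2 scale (edgeR adjusted p = 0.00405), lost with DESeq2 (-0.46) and without spleen Wt 2 (-0.44). Samhd1, which depletes nucleotides, was higher in spleen KO at 0.18 on the log2 scale (edgeR adjusted p = 7.7e-04), lost without spleen KO 2 (0.14) and 0.11 with library totals.

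Of the 7 genes of ISG15 conjugation, ubiquitin ligation and ADP-ribose transfer, 1 was lower in lung KO (14.3%, against 26.4% of all genes). None was higher there, where 29.2% of all genes were. In spleen KO 3 were higher (42.9%, against 28.2% of all genes) and 1 was lower (14.3%, against 28.9%). Isg15, the modifier itself, was called in neither organ, or higher in spleen KO with the GC trend removed (0.32). Usp18, which removes ISG15 and blocks the receptor subunit Ifnar2, was higher in spleen KO at 0.61 on the log2 scale (edgeR adjusted p = 3.2e-07) and was not called in lung, where removal of the GC trend made it lower (-0.26). Trim25, the ubiquitin ligase that activates RIG-I, was lower in spleen KO at -0.57 on the log2 scale (edgeR adjusted p = 5.5e-06). Dtx3l, a ubiquitin ligase, was higher in spleen KO at 0.26 on the log2 scale (edgeR adjusted p = 0.00592), lost with DESeq2 (0.28) and without spleen KO 2 (0.28). The ADP-ribosyltransferase Parp14 was higher there at 0.27 on the log2 scale (edgeR adjusted p = 0.00228), lost without spleen Wt 1 (0.18) and 0.45 without spleen Wt 2. Parp9, the partner of Dtx3l, was lower in lung KO at -0.46 on the log2 scale (edgeR adjusted p = 5.1e-05). Dtx3l and Parp9 share 458 bases of exon on opposite strands, so their reads can be mixed.

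The guanylate-binding proteins and immunity-related GTPases, which damage the vacuoles of intracellular pathogens, were split in both organs. In lung 2 of 9 were higher in KO (22.2%, against 29.2% of all genes) and 3 were lower (33.3%, against 26.4%). In spleen 5 were higher (55.6%, against 28.2% of all genes) and 2 were lower (22.2%, against 28.9%). Irgm2 had the largest difference in both organs, and its libraries were at 12.2 and 13.7 CPM in lung Wt and 31.9 and 26.2 CPM in lung KO. Spleen Irgm2 stood at 45.6 and 47.8 CPM in Wt and 34.5 and 35.9 CPM in KO. No groups overlapped, and the order was lung Wt, lung KO, spleen KO and spleen Wt. The difference was 1.17 on the log2 scale (SE 0.14, edgeR adjusted p = 4.2e-09) in lung and -0.40 (SE 0.09, adjusted p = 1.5e-04) in spleen. Irgm1 went the other way, at -0.20 on the log2 scale (edgeR adjusted p = 0.0438) and 0.19 (adjusted p = 0.0191). Both of its calls were lost under many settings, such as library totals (-0.10 and 0.12), DESeq2 (-0.20 and 0.18) and leaving out either library of lung Wt or lung KO (-0.23 to -0.14) or, in spleen, spleen Wt 1, spleen Wt 2 or spleen KO 2 (0.11 to 0.24). Irgm2 shares 162 bases of exon with Igtp on the same strand, and Igtp was called in neither organ. Gbp5, which acts in inflammasome assembly, was 0.61 on the log2 scale (edgeR adjusted p = 9.2e-04) in lung, a call lost without lung Wt 1 (0.30), and -0.28 (adjusted p = 0.0375) in spleen. The spleen call was lost with DESeq2 (-0.21), with the GC trend removed (-0.26), without spleen Wt 2 (-0.17) and without spleen KO 2 (-0.10). Gbp7 was -0.48 on the log2 scale (edgeR adjusted p = 3.9e-12) in lung and 0.17 (adjusted p = 5.4e-04) in spleen, where removal of the GC trend left 0.05 and no call and library totals 0.10. Ifi47 and Gbp3 were higher in spleen KO at 0.35 on the log2 scale (edgeR adjusted p = 8.5e-10) and 0.30 (adjusted p = 2.8e-04), the latter lost without spleen KO 2 (0.20). Gbp3 was also called higher in lung KO with the GC trend removed (0.17). Gbp2, lower in lung KO at -0.15 on the log2 scale (edgeR adjusted p = 0.0438) and higher in spleen KO at 0.13 (adjusted p = 0.0486), lost both calls with library totals, DESeq2 and other settings, among them leaving out lung Wt 2 (-0.11), lung KO 2 (-0.09), spleen Wt 1 (0.08), spleen KO 1 (0.13) or spleen KO 2 (0.12).

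Pathway genes outside the 51 were also counted, beside the 29.2% of all genes that were higher and 26.4% lower in lung KO and the 28.2% higher and 28.9% lower in spleen KO. Of 10 genes grouped as negative regulators, 4 were higher (40%) and 3 lower (30%) in lung KO, and 2 were higher (20%) and 4 lower (40%) in spleen KO. The 10 include Ube2l6, which conjugates ISG15 and is not an inhibitor of the pathway. Its mean was 25.5 CPM in lung Wt and 16.1 CPM in lung KO. Socs1, the induced inhibitor of JAK kinases, was at 5.21 and 7.24 CPM in lung Wt and 24.9 and 27.1 CPM in lung KO. Spleen Socs1 stood at 31.9 and 27.8 CPM in Wt and 6.19 and 8.33 CPM in KO. It was high in lung KO and spleen Wt and low in the other groups, with 2.15 on the log2 scale (SE 0.17, edgeR adjusted p = 4.1e-13) in lung and -1.85 (SE 0.13, adjusted p = 1.4e-14) in spleen. Of 9 genes that act in sensing upstream of interferon, 5 were higher (55.6%) and 1 lower (11.1%) in lung KO, and 1 was higher and 5 lower in spleen KO. Lists this short were given no test of their own. Of 13 interferon genes Ifng alone was tested, and it was higher in KO in both organs, at 0.97 on the log2 scale (SE 0.06, edgeR adjusted p = 2.3e-16) and 0.48 (SE 0.06, adjusted p = 1.3e-08). Of 59 other induced genes tested, 15 were higher (25.4%) and 21 lower (35.6%) in lung KO, and 25 were higher (42.4%) and 12 lower (20.3%) in spleen KO.

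The assumed spread and the scaling bear on all of these genotype counts. When every gene was given a coefficient of variation of 0.2 3 members were higher and none lower in lung KO, and 1 was higher and 2 lower in spleen KO, with Irf7, Oas3 and Irgm2 still called in lung and Stat2, Isg20 and Oasl1 in spleen. Scaling to library totals shifted the median of all genes to 0.113 in lung and that of the difference between the organs to 0.194, and then 20 members were higher and 8 lower in lung KO, and 20 higher and 7 lower for the difference between the organs.

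In each genotype most members were called lower in lung NK cells than in spleen NK cells, though these were partly different members. In Wt, 29 of 48 members were lower in lung than in spleen (60.4%), where 29.3% of all genes were. Higher in lung were 8 (16.7%), where 27.7% of all genes were, or 5 without lung Wt 1. In KO, 27 were lower in lung (56.2%), where 31.7% of all genes were, and 10 were higher (20.8%), where 33.9% were. The median member difference was -0.34 on the log2 scale in both genotypes, against -0.009 and 0.017 over all genes. Members lower in lung in both genotypes included Ifit1, Ifit2, Ifit3, Isg15, Oasl2, Rsad2, Ifi27, Ifi44 and Ifi47. Irf8, Mx1 and Gbp4 were higher in lung in both. Irf7, Stat2, Oasl1, Ifnar1 and Adar were lower in lung in Wt and higher in KO. Isg20, Ifi35, Xaf1 and Gbp7 were higher in lung in Wt and lower in KO. The share of all genes in each of these combinations was not counted.

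**Figure D5:**
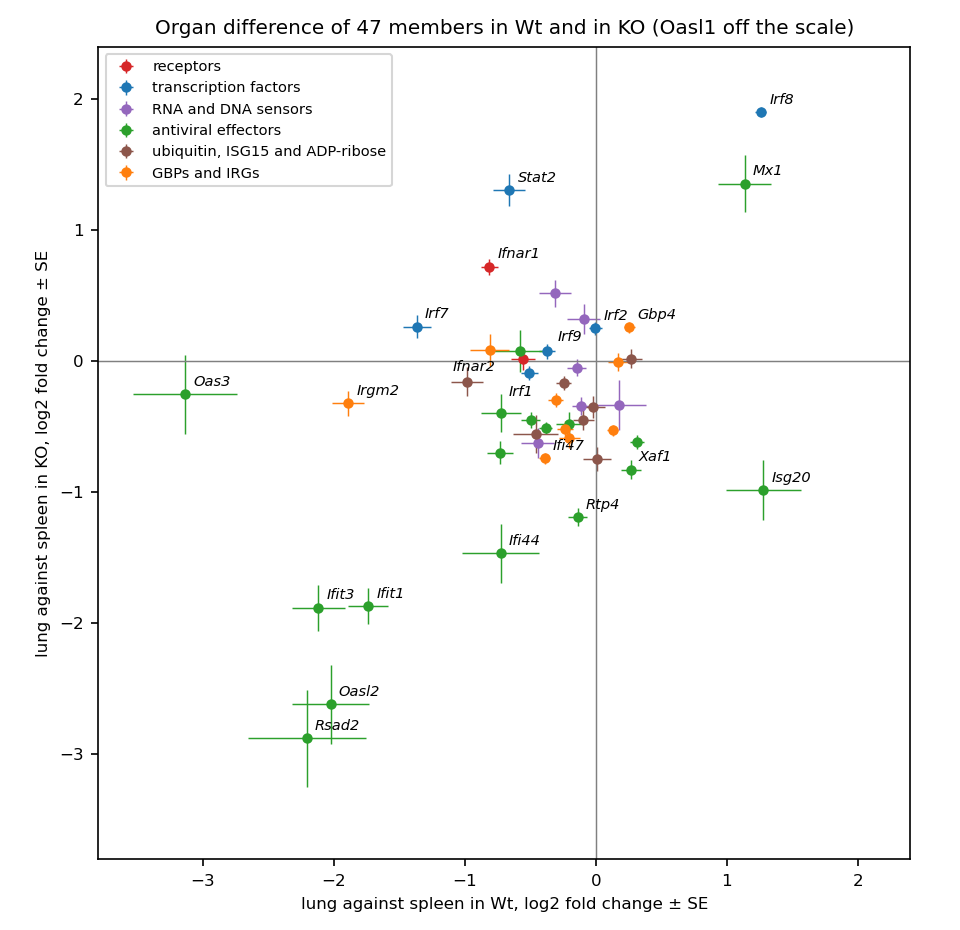
The log2 fold change of lung against spleen in Wt (horizontal axis) is plotted against that in KO (vertical axis) for 47 tested members, with bars for the SE and colours for the role. Ifit1, Ifit3, Oasl2 and Rsad2 lie at the lower left, Irf8 and Mx1 at the upper right, and Stat2 and Ifnar1 at the upper left, and Oasl1, at -1.97 in Wt and 5.60 in KO, is off the scale.

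Ifit1, Ifit3, Oasl2 and Rsad2, all classical virus-induced genes, were called lower in lung in both genotypes. Ifit1 differed between lung and spleen by -1.74 on the log2 scale (SE 0.15, edgeR adjusted p = 4.2e-12) in Wt and -1.87 (SE 0.14, adjusted p = 2.2e-14) in KO, a fold of 3.34 and 3.65 in favour of spleen. Ifit3 differed by -2.12 on the log2 scale (SE 0.20, edgeR adjusted p = 2.7e-11) in Wt and -1.88 (SE 0.18, adjusted p = 9.4e-12) in KO. Oasl2 was at -2.03 on the log2 scale (SE 0.29, edgeR adjusted p = 2.9e-07) in Wt and -2.62 (SE 0.30, adjusted p = 1.4e-09) in KO, and Rsad2 at -2.21 (SE 0.45, adjusted p = 7.4e-05) and -2.88 (SE 0.37, adjusted p = 1.7e-08). In the values by library given above, each lung library was below each spleen library for these 4 genes. Ifit2 was lower in lung by smaller amounts, -0.73 on the log2 scale (edgeR adjusted p = 8.5e-08) in Wt and -0.70 (adjusted p = 1.0e-08) in KO. Isg15 was lower in lung at -0.46 on the log2 scale (edgeR adjusted p = 0.0206) in Wt and -0.55 (adjusted p = 9.8e-04) in KO. It lost the Wt call with DESeq2 (-0.47), with the GC trend removed (-0.29) and without lung Wt 1, lung Wt 2 or spleen Wt 1 (-0.48 to -0.39), and the KO call with DESeq2 (-0.57) and without spleen KO 2 (-0.58). Reads of Ifit3 can be shared with its near copy Ifit3b, so that its level is uncertain.

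Irf8 and Mx1 were called the other way in both genotypes. Irf8 was higher in lung by 1.26 on the log2 scale (SE 0.04, edgeR adjusted p = 3.1e-25) in Wt and 1.90 (SE 0.04, adjusted p = 5.1e-32) in KO. Mx1 was higher in lung by 1.14 on the log2 scale (SE 0.20, edgeR adjusted p = 1.1e-05) in Wt and 1.36 (SE 0.22, adjusted p = 1.2e-06) in KO. Gbp4 was higher in lung by 0.26 on the log2 scale (edgeR adjusted p = 2.7e-06) in Wt, 0.15 with library totals, and 0.26 (adjusted p = 6.8e-07) in KO, and small parts of its exons overlap those of Gbp8 and Gbp9. For the other receptor and factor genes the organ difference depended on the genotype, since the difference between the KO effects of the 2 organs given above is also the difference between the organ effects of the 2 genotypes. Ifnar1 was lower in lung at -0.81 on the log2 scale (SE 0.07, edgeR adjusted p = 5.5e-13) in Wt and higher by 0.72 (SE 0.06, adjusted p = 2.6e-13) in KO, and Stat2 was at -0.66 (SE 0.12, adjusted p = 1.7e-05) in Wt and 1.31 (SE 0.12, adjusted p = 6.8e-12) in KO. Irf7 was at -1.37 on the log2 scale (SE 0.11, edgeR adjusted p = 1.9e-13) in Wt and 0.26 (SE 0.09, adjusted p = 0.00894) in KO, the latter being lost with DESeq2 (0.29) and without lung KO 2 (0.23), at 0.40 without spleen KO 2 and at -0.01 with the GC trend removed. Irf1 and Irf9 were lower in lung in Wt, at -0.51 on the log2 scale (SE 0.06, edgeR adjusted p = 6.7e-09) and -0.37 (SE 0.06, adjusted p = 3.2e-06), and not called in KO, where removal of the GC trend made Irf1 lower (-0.23) and library totals made Irf9 higher (0.13). Irf2 was higher in lung in KO, at 0.25 on the log2 scale (SE 0.05, edgeR adjusted p = 3.4e-05), and not called in Wt.

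Oas3, Irgm2, Isg20 and Oasl1 also had organ differences that depended on the genotype. Oas3 was lower in lung at -3.14 on the log2 scale (SE 0.40, edgeR adjusted p = 1.9e-08) in Wt and was -0.25 (SE 0.30, adjusted p = 0.473) in KO. Irgm2 was at -1.89 on the log2 scale (SE 0.12, edgeR adjusted p = 7.8e-16) in Wt and -0.32 (SE 0.10, adjusted p = 0.00405) in KO, where DESeq2 (-0.30) and fits without lung KO 2 (-0.16) or spleen KO 2 (-0.27) did not call it. Isg20 was higher in lung in Wt at 1.28 on the log2 scale (SE 0.29, edgeR adjusted p = 2.6e-04), a call lost without lung Wt 1 (0.97), and lower in KO at -0.98 (SE 0.23, adjusted p = 3.1e-04). Oasl1 was lower in lung in Wt at -1.97 on the log2 scale (SE 0.43, edgeR adjusted p = 1.6e-04), and at -3.97 without lung Wt 1. Ifi44 was lower in lung at -0.73 on the log2 scale (SE 0.30, edgeR adjusted p = 0.0343) in Wt and at -1.47 (SE 0.23, adjusted p = 6.0e-07) in KO. The Wt call was lost with DESeq2 (-0.62), without lung Wt 1 (-0.34) and without spleen Wt 2 (-0.41), and the dependence on genotype was not called at -0.74. Rtp4, Usp18, Dtx3l, Parp9, Bst2 and Zbp1 were called lower in lung in KO and not in Wt, and the difference between the genotypes was itself called for all of them but Bst2. With the GC trend removed it was called for Bst2 (-0.74) and not for Dtx3l (-0.24). Their log2 differences in KO ran from -1.19 to -0.34.

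Markers of other cells also differed between the organs. Summed over 12 markers of lung epithelium, endothelium and stroma, the level was 328 to 339 CPM in lung Wt, 463 to 503 in lung KO and 65.1 to 75.2 in spleen, where Pecam1 gave nearly all of it and 10 of the 12 were at 0. The 7 T cell markers summed to 48.4 to 68.8 CPM in lung and 158 to 177 in spleen. The 6 conventional dendritic cell markers, with Flt3 at 0 everywhere, summed to 10.9 to 32.7 CPM in lung and 72.8 to 81.1 in spleen. H2-Ab1 gave most of the spleen sum, at a mean of 66.9 CPM in Wt and 66.3 CPM in KO. Cd209a was called higher in lung in Wt (1.22 on the log2 scale) and lower in lung in KO (-1.65). Of the plasmacytoid dendritic cell markers, cells known as the main source of type I interferon, Siglech was at 0 in lung Wt and spleen Wt and Klk1 in every group, and the sum of the 7 was 67.8 to 75.1 CPM in lung and 77.1 to 88.6 in spleen, nearly all from Tcf4. Monocyte, macrophage and neutrophil markers (10 genes, with Adgre1, S100a8, S100a9 and Fcgr1 at 0 in every group) summed to 35.4 to 41.7 CPM in lung and 20.6 to 28.9 in spleen. The 5 erythroid markers summed to 24.7 to 53.2 CPM in lung and 0.688 to 1.05 in spleen, and the 5 genes of type 1 innate lymphoid cells, which share this gate, to 60.4 to 110.2 in lung and 135 to 169.7 in spleen. The part of these cells in the organ differences and in the genotype differences was not tested.

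With a coefficient of variation of 0.2 for every gene, 10 members remained lower in lung in Wt and 3 higher, and 8 lower and 4 higher in KO, and scaling to library totals gave 34 lower and 5 higher in Wt, with the median of all genes at -0.116. Ifit1, Ifit3, Oasl2, Rsad2, Irf8 and Mx1 kept their calls in both genotypes under each of the settings that tested them, Oasl2 and Rsad2 having no value where at least 10 counts were required in every library.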

How the data were processed

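RNA-seq libraries had been prepared from lung and spleen NK cells of Wt and Ccl5ΔPE/ΔPE mice. The authors deposited raw counts per gene, made with HISAT2 2.1.0 on mm10 and HTSeq 0.11.1 according to the submitters' processing notes. The strand setting and the annotation were not given in the sources used here, and the library kit does not mark strand. Multi-mapped reads are not counted by HTSeq in its default mode. Every one of the 8 files was used, and 0 columns were left unmapped.

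From the counts, genes were filtered with filterByExpr (minimum count 10), scaled by TMM (factors 0.954 to 1.033) and fitted with 1 mean per group over all 8 libraries, using edgeR 4.0.16 with limma 3.58.1 in R 4.3.3. The quasi-likelihood test was called at 0.05 after Benjamini-Hochberg adjustment, with 12595 genes tested. KO was compared with Wt in each organ, lung with spleen in each genotype, and the 2 KO effects with each other. CPM values are scaled by TMM. Steps were tested on simulated data. The depth, 3132963 to 26482366 reads on genes, puts 3 reads at 0.113 to 0.958 CPM.

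Members and gene lists were chosen with earlier results of these data known. Members named with values by library are the 2 receptor subunits, the 6 factors and each member called with a log2 difference of at least 0.8 for KO in either organ or of at least 1.5 between organs in Wt, with those not tested. Other members with a call are given by their differences, and Adar, Socs1, Ifng and Ifit1bl1 were added with values seen. Exon lengths, GC content and overlaps came from GENCODE M21, which matched 46394 symbols by name and 583 by synonym and left 1344 unmatched. Alternatives were RLE size factors, library totals, DESeq2 1.42.0, a likelihood ratio test, no filter on low counts, a minimum of 10 counts in each library, only the libraries compared, the replicate number as a block, an assumed coefficient of variation of 0.1 or 0.2, and leaving out each library. Removal of the GC trend was chosen after seeing the data. Intervals and floors cover counting error only, since the reads carry no molecular identifiers. Some marker and pathway genes, and the list results that need them, are not reported here.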

Additional observations from a re-analysis of the deposited data

Results flagged for a closer look

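The difference of KO from Wt was not the same in lung and spleen for 12 of the members described by library. This was tested by the interaction of genotype and organ with edgeR's quasi-likelihood test over all genes. Each value is the log2 fold change of KO against Wt in lung minus that in spleen. The receptor subunits were at 1.53 for Ifnar1 (adjusted p = 2.3e-17) and 0.57 for Ifnar2 (adjusted p = 1.4e-04). The transcription factors were at 0.42 for Irf1 (adjusted p = 3.0e-05), 0.26 for Irf2 (adjusted p = 0.00237), 1.63 for Irf7 (adjusted p = 1.3e-12), 0.64 for Irf8 (adjusted p = 2.2e-12), 0.45 for Irf9 (adjusted p = 2.1e-05) and 1.97 for Stat2 (adjusted p = 1.6e-12). Of the effectors, Oas3 was at 2.88 (adjusted p = 1.9e-05), Oasl1 at 7.57 (adjusted p = 1.5e-09), with 1 read in spleen KO, and Isg20 at -2.26 (adjusted p = 1.8e-06). The GTPase Irgm2 was at 1.57 (adjusted p = 1.2e-10). With the GC trend removed, Irf8 was at 0.40, Irf9 at 0.29 and Irf1 at 0.10, the last no longer called. Over all genes tested, 32.5% were called higher and 29% lower in the same test. Groups of 2 libraries are too small to look for a library far from the others.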

How the results depend on the processing

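Of 170 gene results recomputed, leaving out 1 library gave 1254 values on the same side of the threshold, 82 lost calls, 4 new calls and 20 changes of sign, and the other settings gave 1713, 244, 12 and 26. The cause of these changes was not tested. Of the members given by library, 3 of 10 calls in lung and 3 of 14 in spleen were made under every setting that tested them, against 7 of 12 for the difference between the organs' KO effects, 11 of 17 between organs in Wt and 10 of 14 in KO. Oas3, Isg20, Oasl1, Oasl2 and Rsad2 were not tested where at least 10 counts were required in every library.

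In lung, KO against Wt, library totals gave 20 members higher and a median member difference of 0.153. DESeq2 called 4507 genes and 6 members lower. A coefficient of variation of 0.1 called 4395 genes and 7 members lower, and one of 0.2 called 1557 genes, 3 members higher and 0 lower, all against 7000 genes called. In spleen the median was -0.065 with library totals, -0.030 with the GC trend removed and -0.027 with the block added. DESeq2 called 4165 genes and 10 members lower, a coefficient of 0.1 called 4112 genes, 6 members higher and 8 lower, and one of 0.2 called 1144 genes, 1 higher and 2 lower, against 7195 genes. For the difference between the organs, library totals gave 7 members lower and a median of 0.170, a coefficient of 0.1 gave 10 higher and 6 lower, and one of 0.2 called 2017 genes, 6 higher and 1 lower. Between organs in Wt, library totals gave 5 members higher and a median of -0.449, a coefficient of 0.1 called 4673 genes and 3 higher, one of 0.2 called 2011 genes, 3 higher and 10 lower, and the median was -0.273 with the GC trend removed and -0.281 with the block added. Between organs in KO, library totals gave a median of -0.282, a coefficient of 0.1 gave 6 higher, and one of 0.2 called 2316 genes, 4 higher and 8 lower. Fitting only the libraries compared has no separate value for the difference between the organs, which uses all 8.

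Leaving out 1 library moved the median member difference to 0.037 to 0.064 in lung, -0.018 to 0.047 in spleen, -0.024 to 0.024 for the difference between the organs, -0.363 to -0.294 between organs in Wt and -0.360 to -0.300 in KO. It gave 4448 to 7493 genes, 9 to 16 members higher and 10 to 16 lower in spleen, and 5 to 9 members higher between organs in Wt.

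Signs changed for small differences. Ifit1 in lung was 0.023 with library totals and 0.007 with the GC trend removed, in spleen -0.012, -0.038 and, with the block added, -0.060, and for the difference between the organs 0.035, 0.045 and 0.034. Rsad2 in lung was 0.054 with library totals, 0.076 with the replicate block, 0.024 with the GC trend removed and 0.147 with both, and Irf1 in spleen was -0.002 with library totals. Irf2 between organs in Wt was 0.013 with RLE size factors, 0.010 with DESeq2, 0.000 with only the libraries compared, 0.008 with the block and 0.004 with the block and the GC trend removed. Ifnar2 between organs in KO was -0.064 with DESeq2, -0.001 with the likelihood ratio test, -0.003 with no filter, -0.075 and -0.101 with assumed coefficients of 0.1 and 0.2, -0.022 with the GC trend removed and -0.032 with the block added. Irf7 between organs in KO, called before, was -0.010 with the GC trend removed. With 1 library left out, the ranges that crossed 0 were in lung Irf2 -0.001 to 0.139, Ifi44 -0.244 to 0.359, Ifit1 -0.357 to 0.086, Ifit3 -0.162 to 0.817 and Rsad2 -1.008 to 0.632, in spleen Ifit1 -0.149 to 0.130 and Ifit3 -0.190 to 0.035, for the difference between the organs Ifit1 -0.421 to 0.073 and Ifit3 -0.137 to 0.833, between organs in Wt Irf2 -0.023 to 0.027 and Oas1a -0.810 to 0.016, between organs in KO Ifnar2 -0.245 to 0.109.

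No label ties the replicate numbers to a shared animal or day, and the correlation of the deviations of libraries with the same number was 0.169 in spleen and -0.014 in lung, so they were taken as numbers only. With the replicate block, 13 members were higher and 11 lower in lung KO, 15 higher and 16 lower in spleen KO, 16 higher and 13 lower for the difference between the organs, 8 higher and 29 lower between organs in Wt and 10 higher and 27 lower in KO. The block ended the call of Ifi44 between organs in Wt (-0.607). Depth limits the low members, since 3 reads stood at up to 0.958 CPM.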

Other observations

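Some genes that were counted but not named above also differed between the groups. Mavs, the mitochondrial adaptor of the RNA sensors, was 0.87 higher on the log2 scale in lung KO and fell by 0.33 in spleen KO, and Ikbke, a kinase that activates interferon production, was 1.05 higher in lung KO and fell by 1.03 in spleen KO. Mb21d1 (cGAS), the sensor of cytosolic DNA, fell by 0.74 in lung KO and was 0.25 higher in spleen KO. Socs3, an induced inhibitor of cytokine signalling, was 1.63 higher in lung KO. Ifitm3, a membrane protein that blocks viral entry and that many other cell types also express, was higher in lung than in spleen by 2.65 in Wt and 4.13 in KO. Spleen Ifitm3 rests on few reads, at 0.997 and 1.17 CPM in Wt and 0.326 and 0.612 CPM in KO. In spleen KO 1 it was below the 0.958 CPM at which 3 reads stood. These genes were chosen after their values had been seen. All of these differences were called with edgeR's quasi-likelihood test.

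Over the 48 tested members, the lung and spleen genotype differences had Pearson's r of -0.469 and Spearman's rho of -0.460, and their GC content had a Pearson correlation of 0.232 with the lung difference and of -0.291 with the spleen difference. These are descriptions across genes, which share the same 8 libraries and are not independent.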
